A study of Mus musculus with 12 samples.

Results

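Dorsal skin of C57BL/6J mice that had received both chronic restraint stress and imiquimod (CRS+IMQ) was compared with dorsal skin of untreated C57BL/6J mice (control), both sampled on day 29. The comparison used 6 of the 12 RNA-seq libraries of the series, 3 CRS+IMQ and 3 control, which were taken by their labels and not by any measured value. The other 6 libraries came from skin under chronic restraint stress alone (CRS) and under imiquimod alone (IMQ), 3 each, and are given here only as levels. The comparison asks what the combined treatment did to skin relative to no treatment at all, so that the share of each agent is not separated by it. The labels give no vehicle cream, dose, sex or age, and do not tell whether each library is a different animal. A p-value here sets a difference against the spread among 3 libraries, and part of that spread may be technical.

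Imiquimod is an agonist of Toll-like receptor 7, and its repeated application to mouse skin is a standard model of psoriasis-like inflammation, in which keratinocytes proliferate, differentiate abnormally and release chemokines and antimicrobial proteins that attract neutrophils. Restraint confines an animal, which activates the hypothalamic-pituitary-adrenal axis and raises circulating corticosterone, a glucocorticoid that acts on nearly every cell type of skin. Normal epidermis renews from basal cells with keratins 5 and 14, passes through suprabasal layers with keratins 1 and 10, and ends in a cornified layer of cross-linked envelope proteins and lipids, while injured or psoriatic epidermis switches to keratins 6, 16 and 17.

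Levels are FPKM (fragments per kilobase of transcript, scaled to the mapped fragments of the library) as deposited by the authors. Differences are log2(FPKM + 1) in CRS+IMQ minus control, which understate the change of low transcripts. A gene was called where limma's adjusted p was under 0.05 over the 14083 genes that reached 1 FPKM in 3 or more of the 6 libraries. Depth, estimated from the steps between low values, was 20.53 to 21.08 M fragments in CRS+IMQ and 20.16 to 20.63 M fragments in control. Skin was recognisable in all 6 libraries, with Krt5 at 1694 FPKM or more and Col1a1 at 181.7 FPKM or more. The CRS+IMQ libraries were far more alike than the control libraries, with a median coefficient of variation of 3.19% over 477 well-covered genes, against 15.03% over 440 genes in control. They still differed by more than counting noise, since chi-square per degree of freedom between pairs was 3.54 to 12.9 in CRS+IMQ and 187 to 606 in control. The median chi-square of a gene was lower, at 0.874 to 1.454 in CRS+IMQ and 19.9 to 72.4 in control. Counts are therefore also given with the 3 CRS+IMQ libraries averaged to 1 sample, where the lone sample is assumed to vary like the control libraries. In control, library 3 had the highest summed FPKM of 30 skeletal muscle genes (39070, against 17370 and 26180 in the other control libraries) and the lowest of 60 cornified envelope genes (13310, against 23620 and 20710). The 2 groups were deposited in separate tables, and anything that set these tables apart cannot be told apart from the treatments. In bulk RNA fewer cells of a type cannot be told apart from less RNA per cell.

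Of the 14083 genes, 5307 were called, a share of 37.7%. They comprised 2478 higher genes (17.6%) and 2829 lower genes (20.1%), with a median difference over all genes of -0.03. All 3 CRS+IMQ libraries lay above or below all 3 control libraries for 7631 genes (54.2%). A difference of at least 2-fold was shown by 1535 of the called genes, 702 higher and 833 lower. With the CRS+IMQ libraries averaged to 1 sample, 910 genes were called (6.46%), 529 higher (3.76%) and 381 lower (2.71%), and 904 of these were among the 5307. In the counts of gene lists below, these shares are the background, and a list near them is no result about its members. Named genes that were not called in that setting have its adjusted p beside them, written as averaged adjusted p. A gene could be kept through 1 group alone, and 383 genes had all control libraries below 1 FPKM and 408 had all CRS+IMQ libraries below it. A gene kept this way had to differ between the groups, whether or not a paragraph below repeats it.

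**Figure D1:**
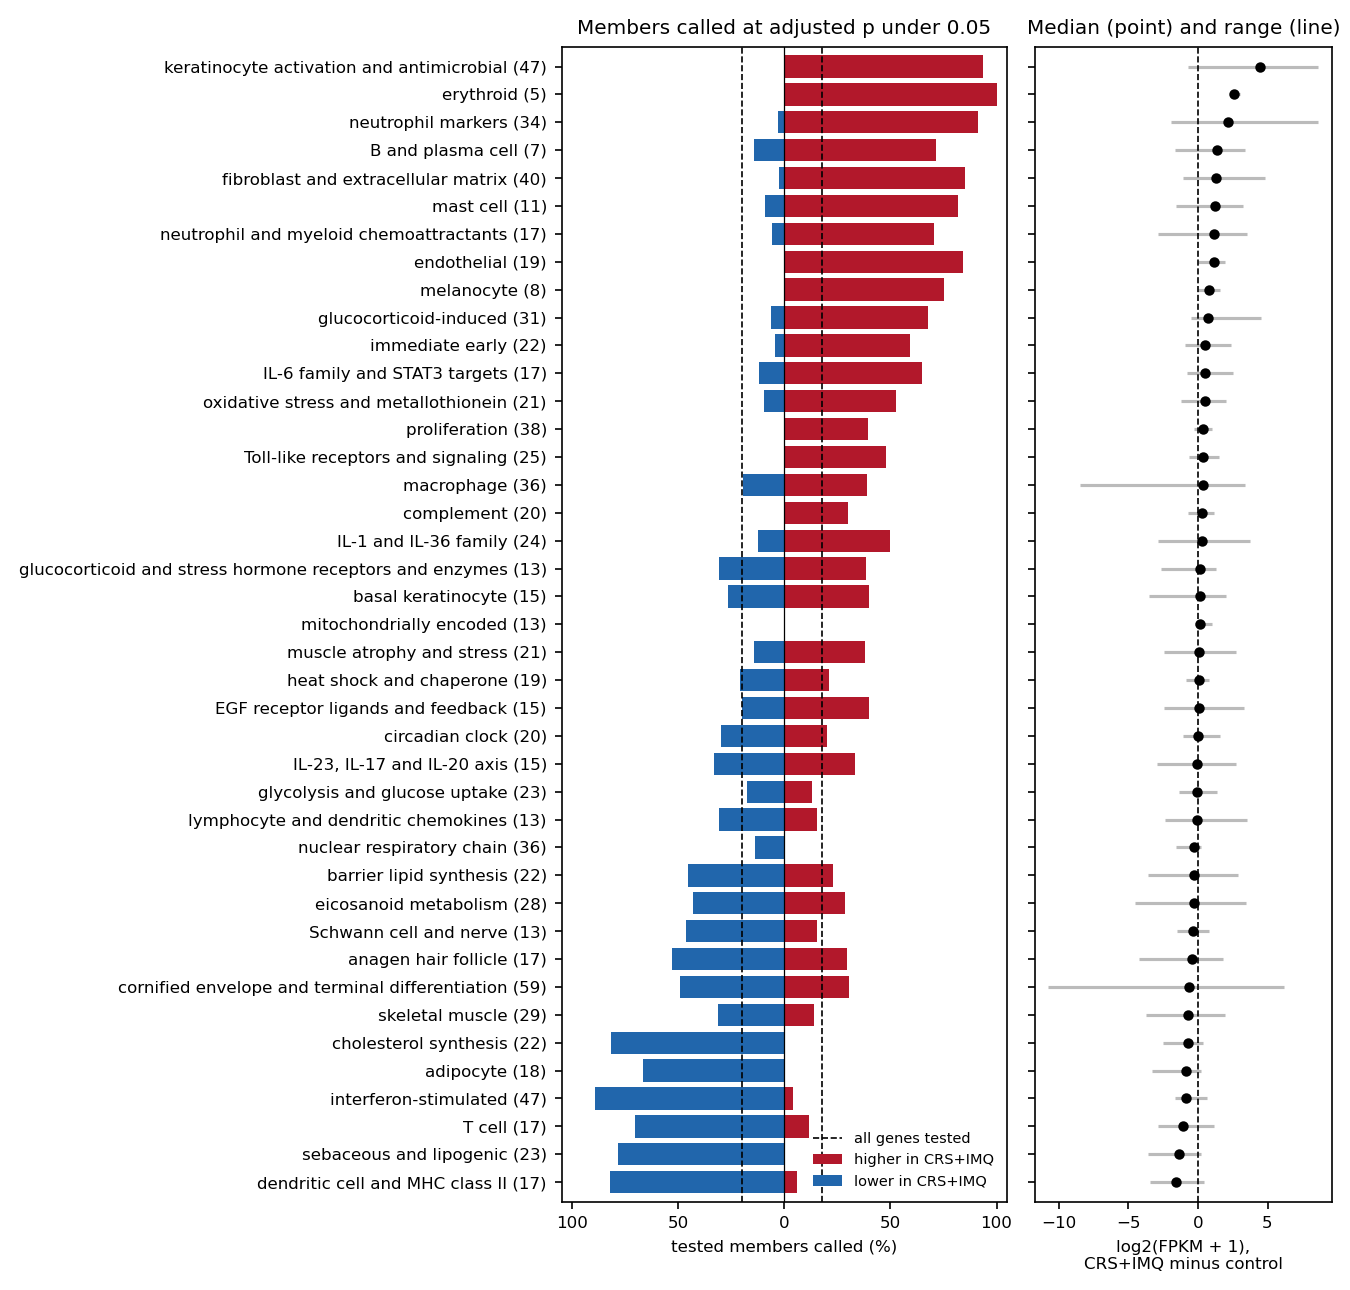
Share of the tested members of 41 gene lists that were called higher (right) or lower (left) in CRS+IMQ skin, with the number tested in brackets and the shares over all genes tested as dashed lines; the right panel gives the median and range of the log2(FPKM + 1) difference. Keratinocyte activation (44 of 47 higher), erythroid (5 of 5) and neutrophil genes (31 of 34) have the highest medians, and dendritic cell and MHC class II (14 of 17 lower), sebaceous (18 of 23) and T cell genes (12 of 17) the lowest.

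The largest rises were in antimicrobial, keratin, envelope and stefin genes. S100a8 (ENSMUSG00000056054, mm10 chromosome 3, 90668978 to 90670035), which encodes a chain of the antimicrobial protein calprotectin, was at 879.1, 824.1 and 848.7 FPKM in CRS+IMQ libraries and at 1.21, 0.540 and 1.72 FPKM in control libraries. The difference was 8.66 ± 0.20 (SE, adjusted p = 2.62e-06). Its partner S100a9 averaged 1769 ± 33.3 FPKM in CRS+IMQ and 4.185 ± 1.005 FPKM in control (SD, n = 3 each), a difference of 8.43. Saa3, an acute-phase serum amyloid gene, was at 468.9, 458.1 and 459.9 FPKM in CRS+IMQ against 0.208, 0.267 and 0.379 FPKM in control (8.50 ± 0.08, adjusted p = 1.41e-07). In each of these genes no control library came near any CRS+IMQ library. The largest fall was that of Krt77 (mm10 chromosome 15), a type II keratin of suprabasal epidermis, at 0.7795, 0.213 and 0.257 FPKM in CRS+IMQ against 3000, 2649 and 1728 FPKM in control (-10.75 ± 0.25, adjusted p = 2.48e-06). An abundant keratin transcript of control skin was thus listed at under 1 FPKM in every CRS+IMQ library. Retnla, which encodes the resistin-like molecule alpha of alternatively activated macrophages and other cells, was second, at 3.12, 3.16 and 2.97 FPKM in CRS+IMQ against 2013, 1463 and 1097 FPKM in control (-8.50 ± 0.22). The other falls among the 15 largest were Lce1m, Serpina3b, Fcgbp, Flg2, Krt23, Mrgprb11-ps, Alox12e, Dapl1, Serpina3j, Krtap3-2, Clca3a2, Cyp2g1 and Serpinb7, between -6.87 and -3.91. The other rises among the 15 largest were Krt6b, Krt16, Csta3, Sprr2d, Cstdc5, Retnlg, Sprr2i, Stfa2, Sprr2e, Lce3b, Rptn and Lce3d, between 8.55 and 6.09. All of them were also called with the CRS+IMQ libraries averaged, except Flg2 (adjusted p = 0.0689).

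**Figure D2:**
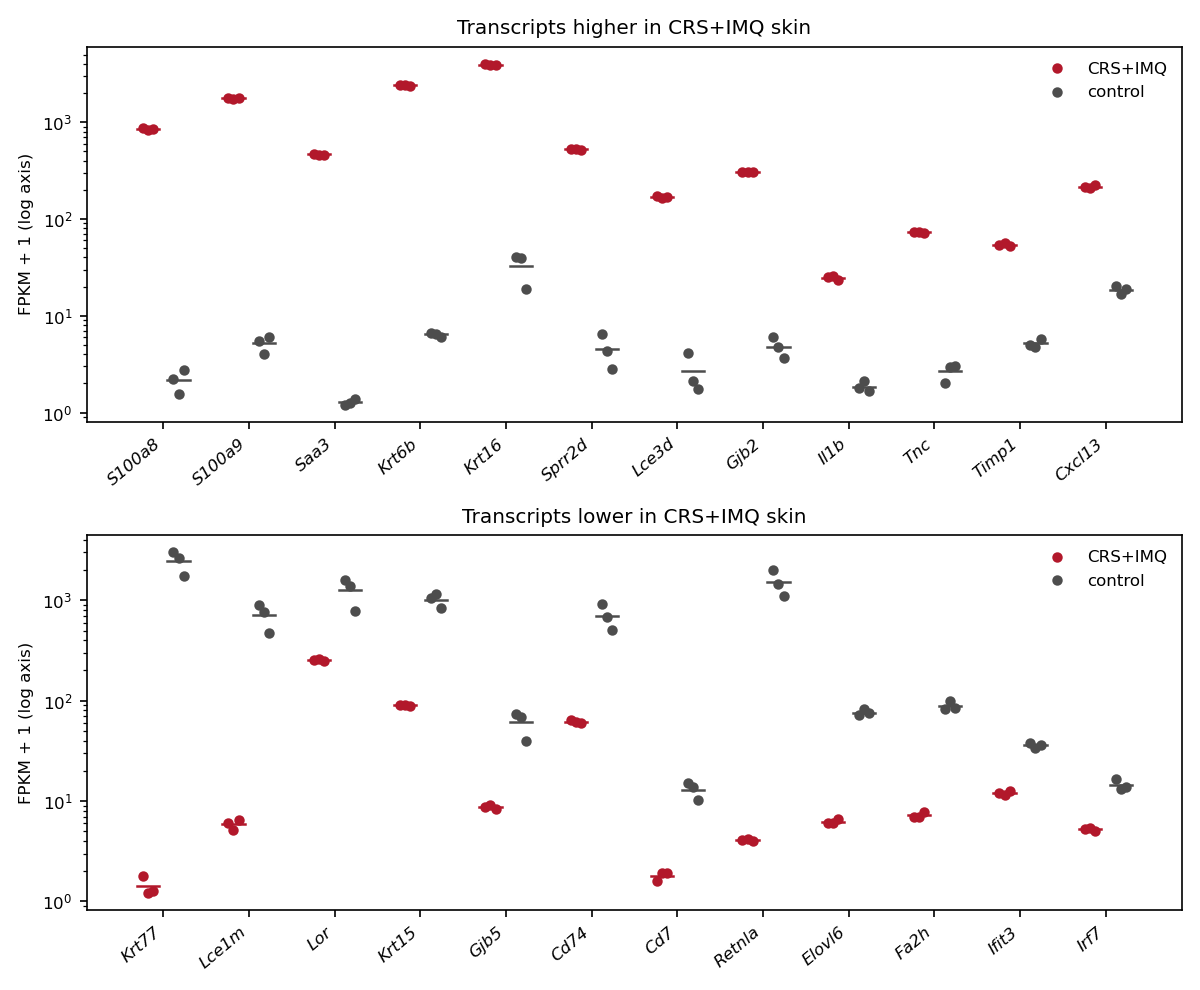
FPKM + 1 (log axis) of 24 transcripts in each of the 3 CRS+IMQ and 3 control libraries, as points, with the group mean as a bar. No transcript shown has a library of either group inside the range of the other, and the CRS+IMQ points lie closer together than the control points in most.

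Keratinocyte activation and antimicrobial genes rose almost without exception. Of 47 tested members 44 rose and 0 fell, and the median difference was 4.43, and 39 rose with the CRS+IMQ libraries averaged. Of the 47, 16 were kept through the CRS+IMQ libraries alone and had to differ. The keratins of wounded epidermis were led by Krt16, at 3985, 3922 and 3857 FPKM in CRS+IMQ against 39.2, 38.4 and 17.8 FPKM in control (6.98 ± 0.30, adjusted p = 3.03e-05). Krt6b averaged 2400 ± 24.7 FPKM in CRS+IMQ and 5.40 ± 0.303 FPKM in control, and Krt6a 2297 ± 16.6 FPKM in CRS+IMQ and 50.6 ± 7.20 FPKM in control. Krt17 was already abundant in control, where hair follicles express it, and averaged 920.9 ± 10.1 FPKM in CRS+IMQ and 446.8 ± 72.1 FPKM in control, a rise of 1.05 (averaged adjusted p = 0.145). Small proline-rich proteins are cross-linked into the envelope of stressed epithelium, and all 11 Sprr2 genes rose, by 4.40 to 6.94. Of the 11, 4 were kept through the CRS+IMQ libraries alone and had to differ. Sprr2b and Sprr2k were listed at 0 in every control library and averaged 60.7 and 20.6 FPKM in CRS+IMQ. All 10 tested genes of the stefin A and related cystatin cluster, inhibitors of cysteine proteases in neutrophils and epidermis, rose by 1.57 to 6.96 (9 with averaged libraries), of which 6 were kept through the CRS+IMQ libraries alone, and Cstdc5 averaged 1886 FPKM in CRS+IMQ against 18.7 FPKM in control. Among antimicrobial proteins, Lcn2, which binds bacterial siderophores, was at 45.7, 35.1 and 40.5 FPKM in CRS+IMQ and at 0.396, 0.926 and 0.957 FPKM in control. The beta-defensins Defb3, Defb4 and Defb14 averaged 14.9, 6.08 and 77.1 FPKM in CRS+IMQ, against 0, 0.0533 and 9.37 FPKM in control. Ereg, S100a10 and Wfdc5 were the members not called. The Sprr2, stefin A, Krt6a and Krt6b, Lce and globin genes have near-identical copies, and the division of reads between copies is uncertain.

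Cornified envelope genes split into opposite directions rather than moving as a block. Of 59 tested members 18 rose and 29 fell (12 and 11 with averaged libraries), and the median was -0.67. Late cornified envelope proteins made the clearest split. All 6 Lce3 genes, the group induced by barrier injury, rose by 4.59 to 6.21, and Lce3b was at 85.7, 86.2 and 83.5 FPKM in CRS+IMQ against 0.352, 0.173 and 0 FPKM in control. Of the 6, 3 were kept through the CRS+IMQ libraries alone and had to differ, Lce3b among them. Of 14 Lce1 genes, the group of normal terminal differentiation, 13 fell and 0 rose (8 and 0 with averaged libraries). Lce1m was at 5.06, 4.20 and 5.41 FPKM in CRS+IMQ against 892.9, 763.7 and 476.0 FPKM in control (-6.87 ± 0.24, adjusted p = 1.24e-05). Lce1g alone was not called, at 37.8 ± 0.834 FPKM in CRS+IMQ and 44.4 ± 8.76 FPKM in control. Both groups lie in the epidermal differentiation complex on mm10 chromosome 3, the Lce3 genes between 92925287 and 92993426 and the Lce1 genes between 92646535 and 93019060.

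Repetin (Rptn), a fused-type S100 protein of the envelope, was at 150.8, 151.9 and 157.0 FPKM in CRS+IMQ and at 1.29, 1.26 and 1.24 FPKM in control (6.09 ± 0.06). Loricrin (Lor), the main envelope protein of normal epidermis, went the other way, at 252.2, 259.7 and 246.1 FPKM in CRS+IMQ against 1602, 1387 and 773.5 FPKM in control (-2.24 ± 0.28, adjusted p = 0.00156, averaged adjusted p = 0.0898). Filaggrin (Flg), which bundles keratin filaments, averaged 25.2 ± 0.629 FPKM in CRS+IMQ and 17.9 ± 5.51 FPKM in control and was not called (adjusted p = 0.123). Its relative Flg2 was at 0.183, 0.186 and 0.191 FPKM in CRS+IMQ against 56.4, 42.9 and 11.7 FPKM in control. Involucrin (Ivl) averaged 52.4 ± 0.413 FPKM in CRS+IMQ and 76.1 ± 21.5 FPKM in control (-0.49, adjusted p = 0.129). Without control library 3 both were called, Flg as higher (0.25, adjusted p = 0.0126) and Ivl as lower (-0.74, adjusted p = 0.000577).

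The suprabasal and basal keratin pairs came apart. Krt1 averaged 1601 ± 4.78 FPKM in CRS+IMQ and 738.6 ± 195 FPKM in control, a rise of 1.15 (adjusted p = 0.00885), whereas its usual partner Krt10 averaged 2002 ± 16.4 FPKM in CRS+IMQ and 3875 ± 1017 FPKM in control, a fall of 0.92 on the log2 scale (adjusted p = 0.0216). Neither was called with averaged libraries (adjusted p of 0.209 and 0.331). Krt14 was at 7988, 7969 and 7820 FPKM in CRS+IMQ against 2246, 2199 and 1471 FPKM in control (2.03 ± 0.21, adjusted p = 0.00073, averaged adjusted p = 0.0781). Its partner Krt5 averaged 2545 ± 29.5 FPKM in CRS+IMQ and 2306 ± 535 FPKM in control, and the groups overlapped. Krt15, which marks quiet basal cells and the hair follicle bulge, was at 90.0, 88.9 and 86.9 FPKM in CRS+IMQ against 1043, 1158 and 833.6 FPKM in control (-3.48 ± 0.14, adjusted p = 2.26e-05). Of the 22 keratin genes tested, 10 rose and 10 fell (7 and 6 with averaged libraries). Of the 15 basal keratinocyte genes tested, 6 rose and 4 fell (1 and 1 with averaged libraries). Col17a1, a hemidesmosome collagen, fell, at 68.2 FPKM in CRS+IMQ and 163.0 FPKM in control (averaged adjusted p = 0.157).

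Connexins, which build the gap junctions between keratinocytes, also moved in both directions, 7 of 10 tested higher and 3 lower (4 and 1 with averaged libraries). Gjb2 was at 301.8, 302.5 and 306.4 FPKM in CRS+IMQ against 5.01, 3.73 and 2.67 FPKM in control (6.01 ± 0.18, adjusted p = 6.38e-06). Gjb6 averaged 44.0 ± 0.812 FPKM in CRS+IMQ and 1.21 ± 0.115 FPKM in control. The 10 connexin genes were taken by symbol and not by cell type. Of these, 3 (Gja5, Gjb1 and Gjc1) were kept through the CRS+IMQ libraries alone and had to differ. Gjb5 fell by 2.75 on the log2 scale and averaged 7.76 ± 0.388 FPKM in CRS+IMQ and 59.8 ± 18.2 FPKM in control. Of the epidermal serine proteases that control shedding, 7 of 10 kallikreins tested rose and 1 fell (5 and 0 with averaged libraries), with Klk6 at 122.3 FPKM in CRS+IMQ and 10.7 FPKM in control. Klk5 fell, at 49.3 FPKM in CRS+IMQ and 117.2 FPKM in control, as did Spink5, which encodes the inhibitor of these proteases, at 19.7 FPKM in CRS+IMQ and 47.9 FPKM in control (averaged adjusted p of 0.168 and 0.107). Of 9 tested claudin genes of the tight junction 6 fell and 2 rose (2 and 1 with averaged libraries), with Cldn1 at 8.51 FPKM in CRS+IMQ and 26.2 FPKM in control (averaged adjusted p = 0.0558). The families described here, from the Lce and Sprr2 genes to the claudins, were chosen after their values were seen. In these families 2 of 10 kallikreins and 4 of 22 keratins were also kept through the CRS+IMQ libraries alone. Through the control libraries alone, 4 of the keratins and 1 of 9 claudins were kept.

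**Figure D3:**
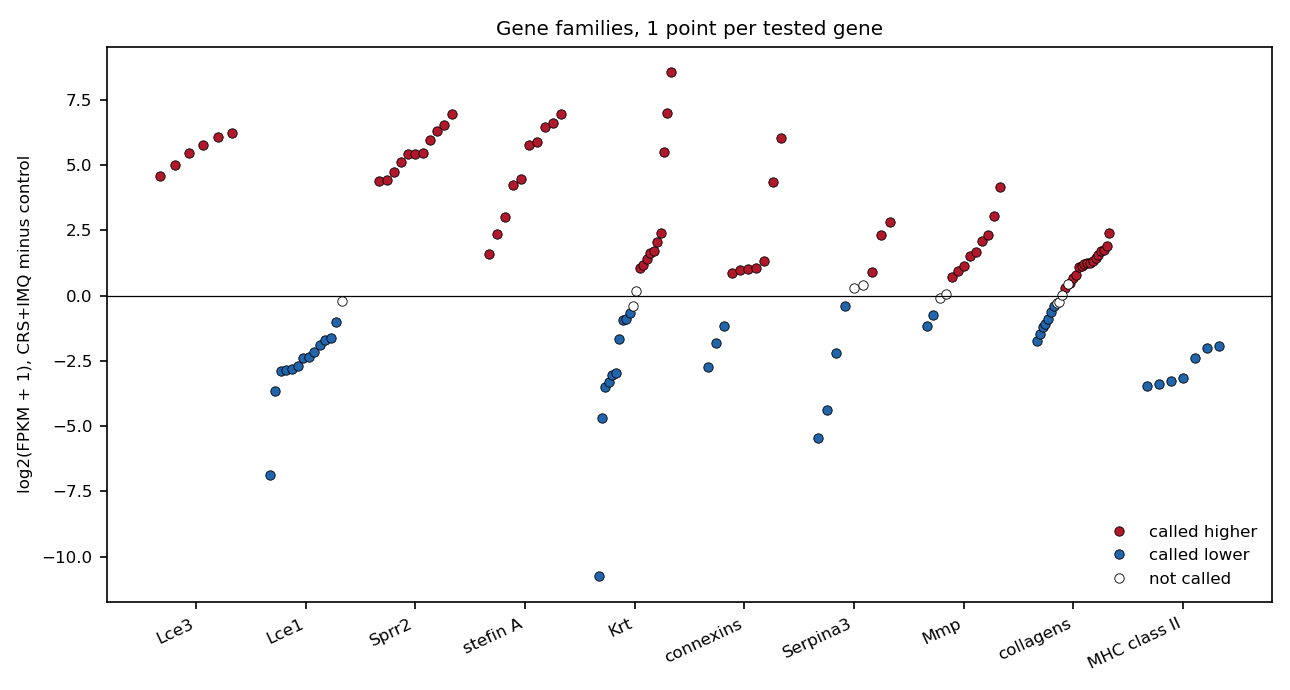
Difference of log2(FPKM + 1) in CRS+IMQ minus control for every tested gene of 10 families, coloured by its call. Lce3, Sprr2 and stefin A genes are all above 0 and MHC class II genes all below, Lce1 genes lie between -6.87 and -0.21, and keratins run from -10.75 to 8.55.

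Sebaceous, cholesterol synthesis and adipocyte genes fell and did not rise where called, and barrier lipid genes moved in both directions. Some were kept through 1 group alone and had to differ. They were 2 of 23 sebaceous and lipogenic genes and 1 of 18 adipocyte genes (Lep), through the control libraries alone. Through the CRS+IMQ libraries alone, 1 of 22 barrier lipid genes (Degs2) was kept. Summed FPKM of 20 adipocyte genes was 2158 to 2209 in CRS+IMQ and 2478, 3675 and 4899 in control. Of 22 barrier lipid genes tested, which make the ceramides and very long fatty acids of the cornified layer, 10 fell and 5 rose (2 and 1 with averaged libraries). Fa2h, the fatty acid hydroxylase, averaged 6.24 ± 0.400 FPKM in CRS+IMQ and 87.7 ± 8.57 FPKM in control (-3.61 ± 0.10). Elovl4, the elongase for ultra-long chains, averaged 62.6 ± 2.03 FPKM in CRS+IMQ and 167.4 ± 16.5 FPKM in control. Degs2, which makes phytoceramide, ran against them at 11.6 ± 0.663 FPKM in CRS+IMQ and 0.728 ± 0.249 FPKM in control (2.87 ± 0.12). Of 23 sebaceous and lipogenic genes, 18 fell and 0 rose (9 and 0 with averaged libraries), and the median was -1.36. Elovl6 was at 5.09, 5.02 and 5.65 FPKM in CRS+IMQ against 70.7, 80.9 and 73.8 FPKM in control (-3.61 ± 0.08, adjusted p = 2.4e-06). Awat1, a wax ester synthase of the sebaceous gland, averaged 0.827 ± 0.275 FPKM in CRS+IMQ and 18.6 ± 0.449 FPKM in control. Of 22 cholesterol synthesis genes, 18 fell and 0 rose (3 and 0 with averaged libraries), and the median was -0.74. Of 18 adipocyte genes, 12 fell and 0 rose (1 with averaged libraries), and the hormone leptin (Lep) averaged 0.6865 ± 0.208 FPKM in CRS+IMQ and 16.7 ± 5.87 FPKM in control.

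Cytokine genes of the interleukin-1 family moved unevenly. Of 24 tested, 12 rose and 3 fell (6 and 1 with averaged libraries). Il1b, the main product of inflammasome activation, was at 24.1, 24.7 and 22.6 FPKM in CRS+IMQ against 0.782, 1.10 and 0.663 FPKM in control (3.75 ± 0.10, adjusted p = 4.79e-06). Among the interleukin-36 genes, which the files list under older symbols, Il1f6 rose, at 43.2 ± 1.59 FPKM in CRS+IMQ and 10.2 ± 2.80 FPKM in control (2.02 ± 0.19). Il1f9 averaged 33.2 ± 1.57 FPKM in CRS+IMQ and 32.8 ± 9.68 FPKM in control, and Il1f8 was not called either. Il1f10 and Il1a fell, by 2.89 and 1.35 on the log2 scale (averaged adjusted p of 0.0276 and 0.131). Il33, an alarmin, averaged 31.4 FPKM in CRS+IMQ and 13.2 FPKM in control, and its receptor gene Il1rl1 averaged 6.15 FPKM in CRS+IMQ and 0.892 FPKM in control, and both rose.

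The interleukin-17 and interleukin-23 genes themselves were near the detection limit in both groups. Il17a averaged 0.0417 FPKM in CRS+IMQ and was listed at 0 in control, Il17f averaged 0.0725 FPKM in CRS+IMQ and 0.0161 FPKM in control, and Il23a 0.2202 FPKM in CRS+IMQ and 0.1005 FPKM in control. Il22 was listed at 0 in all 6 libraries, and none of these genes was tested. Of 15 tested genes of the axis of interleukins 17, 20 and 23, 5 rose and 5 fell (2 and 1 with averaged libraries). The interleukin-20 family ligands and receptors moved in opposite directions. Of the 15, however, 2 were kept through the CRS+IMQ libraries alone and 3 through the control libraries alone, and these had to differ. Il19 and Il24 are among the former and Il20ra is among the latter. Il19 was listed at 0 in every control library and at 6.05, 4.65 and 4.83 FPKM in CRS+IMQ. Il24 was likewise listed at 0 in control and at 5.79, 5.53 and 6.15 FPKM in CRS+IMQ. Their receptor chains fell, with Il20ra at 0.268 ± 0.114 FPKM in CRS+IMQ against 9.17 ± 2.76 FPKM in control and Il20rb at 8.01 ± 0.451 FPKM in CRS+IMQ against 35.15 ± 9.25 FPKM in control (averaged adjusted p = 0.0582 for Il20rb). Il22ra1, the chain shared with the interleukin-22 receptor, averaged 0.765 FPKM in CRS+IMQ and 4.245 FPKM in control (averaged adjusted p = 0.0788).

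Of 17 tested interleukin-6 family, receptor, signalling and STAT3 target genes 11 rose and 2 fell (8 and 0 with averaged libraries). Socs3, the feedback inhibitor of STAT3 signalling, was at 50.5, 50.2 and 52.0 FPKM in CRS+IMQ against 12.87, 11.96 and 10.26 FPKM in control (2.04 ± 0.09). Bcl3 averaged 36.3 FPKM in CRS+IMQ and 5.74 FPKM in control. Il6 itself averaged 1.205 FPKM in CRS+IMQ and 0.0337 FPKM in control. Of the 17, 2 were kept through the CRS+IMQ libraries alone and had to differ, Il6 among them. The receptor gene Il6ra fell, at 6.00 FPKM in CRS+IMQ and 11.5 FPKM in control (averaged adjusted p = 0.156).

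Most neutrophil markers were higher in CRS+IMQ skin, where they summed to 5083 to 5273 FPKM, against 307.0 to 467.2 FPKM in control skin. Of 34 tested, 31 rose and 1 fell, and 26 rose with averaged libraries, but 18 of the 34 were kept through the CRS+IMQ libraries alone and were below 1 FPKM in every control library. Retnlg was at 115.6, 102.2 and 103.9 FPKM in CRS+IMQ against 0.246, 0 and 0.158 FPKM in control (6.58 ± 0.11). The granule collagenase Mmp8 averaged 17.0 ± 0.605 FPKM in CRS+IMQ and 0.0134 ± 0.0232 FPKM in control. Csf3r, the receptor for granulocyte colony-stimulating factor, averaged 28.4 ± 0.669 FPKM in CRS+IMQ and 3.19 ± 0.490 FPKM in control, and the chemokine receptor Cxcr2 10.97 ± 0.323 FPKM in CRS+IMQ and 0.824 ± 0.250 FPKM in control. Ly6g, the surface marker used to sort neutrophils, was listed at 0 in every control library and averaged 2.09 FPKM in CRS+IMQ. S100a8 and S100a9 are in this list as well, although keratinocytes also express them, as do several stefin genes. The exception was Wfdc21, at 48.9 FPKM in CRS+IMQ and 193.3 FPKM in control (averaged adjusted p = 0.0521).

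Most genes for attractants of neutrophils and monocytes also rose. Of 17 tested attractants 12 rose and 1 fell (9 and 1 with averaged libraries), but 7 of the 17, Cxcl1, Cxcl2 and Cxcl5 among them, were kept through the CRS+IMQ libraries alone. Cxcl2 was at 11.7, 10.9 and 11.1 FPKM in CRS+IMQ against 0.0722, 0.0235 and 0.0459 FPKM in control. Cxcl5 averaged 9.73 ± 0.371 FPKM in CRS+IMQ and 0.0236 ± 0.0256 FPKM in control, and Cxcl1 3.08 ± 0.709 FPKM in CRS+IMQ and 0.184 ± 0.160 FPKM in control. Ccl8, a monocyte attractant, was the most abundant, at 662.3 ± 4.14 FPKM in CRS+IMQ and 170.1 ± 35.2 FPKM in control (1.98 ± 0.17). The eosinophil attractant Ccl24 fell, at 0.590 ± 0.154 FPKM in CRS+IMQ and 10.5 ± 0.222 FPKM in control (-2.85 ± 0.09). Chemokines for lymphocytes and dendritic cells had no common direction, with 2 of 13 higher and 4 lower (1 and 1 with averaged libraries). Cxcl13, the B cell attractant, was the highest of them at 215.3 ± 7.66 FPKM in CRS+IMQ and 17.6 ± 1.83 FPKM in control. Of the 13, 3 were kept through the control libraries alone and had to differ, Ccl22 and Xcl1 among them. Ccl22, Xcl1, Ccl27a and Cxcl14 fell, of which only Xcl1 was called with averaged libraries.

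Macrophage genes moved in both directions. Their summed FPKM was 4119 to 4212 in CRS+IMQ and 3947 to 5910 in control, and of 36 tested 14 rose and 7 fell (4 and 5 with averaged libraries). Retnla alone gave 1097 to 2013 FPKM of the control sums and 2.97 to 3.16 FPKM of the CRS+IMQ sums. Among general markers, Csf1r was at 53.3 ± 1.17 FPKM in CRS+IMQ and 60.85 ± 12.4 FPKM in control and Cd163 at 30.7 ± 0.770 FPKM in CRS+IMQ and 24.7 ± 5.03 FPKM in control, and neither was called. The scavenger receptor gene Marco was at 22.5, 22.2 and 23.4 FPKM in CRS+IMQ against 2.44, 0.885 and 0.844 FPKM in control (3.37 ± 0.25). Adgre1, which encodes F4/80, averaged 80.7 ± 1.32 FPKM in CRS+IMQ and 25.01 ± 3.29 FPKM in control. Beside Retnla, the members with the largest falls were Mgl2, a lectin of alternatively activated macrophages, and the lysozyme gene Lyz1. Mgl2 averaged 1.34 ± 0.221 FPKM in CRS+IMQ and 34.1 ± 5.13 FPKM in control (-3.90 ± 0.13), and Lyz1 8.04 ± 0.200 FPKM in CRS+IMQ and 99.3 ± 5.67 FPKM in control. Arg1, also a marker of alternative activation, rose instead, at 20.2 FPKM in CRS+IMQ and 7.13 FPKM in control (averaged adjusted p = 0.0647), as did Nos2, at 2.34 FPKM in CRS+IMQ and 0.369 FPKM in control.

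Most antigen presentation and T cell genes fell. All 7 tested genes of the MHC class II pathway fell, and of the 17 tested dendritic cell and class II genes 14 fell and 1 rose (8 and 0 with averaged libraries). Cd74, the invariant chain that chaperones class II molecules, was at 62.6, 60.9 and 59.1 FPKM in CRS+IMQ against 914.7, 685.4 and 500.2 FPKM in control (-3.46 ± 0.22, adjusted p = 0.000123). H2-Aa averaged 14.4 ± 0.646 FPKM in CRS+IMQ and 150.4 ± 39.1 FPKM in control, and Ciita, the transactivator of class II genes, 0.215 FPKM in CRS+IMQ and 1.45 FPKM in control (averaged adjusted p = 0.085). Langerin (Cd207), the defining marker of Langerhans cells, averaged 2.38 ± 0.0482 FPKM in CRS+IMQ and 14.0 ± 5.68 FPKM in control (averaged adjusted p = 0.0978). Of 17 tested T cell genes 12 fell and 2 rose (4 and 1 with averaged libraries), but 9 of the 17 were kept through the control libraries alone and had to differ. They include Cd3e, at 0.184 FPKM in CRS+IMQ and 1.83 FPKM in control (averaged adjusted p = 0.0727). Trdc, the constant chain of the gamma-delta T cells that populate mouse epidermis, averaged 0.814 FPKM in CRS+IMQ and 3.55 FPKM in control (averaged adjusted p = 0.105). Cd7 had the largest fall of the list, at 0.595, 0.908 and 0.906 FPKM in CRS+IMQ and 14.05, 12.65 and 9.299 FPKM in control. Gzmb and Fyb were the members that rose (averaged adjusted p of 0.318 and 0.0483).

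Of the other blood and vascular genes, most of those called were higher in CRS+IMQ. Some were kept through the CRS+IMQ libraries alone and had to differ. They were 3 of 7 B and plasma cell, 3 of 11 mast cell and 2 of 19 endothelial genes. Of 7 tested B and plasma cell genes 5 rose and 1 fell (4 and 1 with averaged libraries). Ighg2c, a switched immunoglobulin heavy chain, was at 8.90, 10.1 and 9.72 FPKM in CRS+IMQ against 0, 0 and 0.0371 FPKM in control. Ighm, the heavy chain of IgM, fell at 35.6 ± 0.672 FPKM in CRS+IMQ and 111.5 ± 5.09 FPKM in control (-1.62 ± 0.08). Summed FPKM of 14 B and plasma cell genes was lower in CRS+IMQ, at 111.9 to 123.3 against 138.1 to 144.0 in control. The B cell marker Ms4a1 stayed under 1 FPKM in both groups. Of 11 mast cell genes 9 rose and 1 fell (4 and 1 with averaged libraries). Cpa3, the carboxypeptidase of mast cell granules, averaged 50.5 ± 1.05 FPKM in CRS+IMQ and 21.1 ± 4.58 FPKM in control (averaged adjusted p = 0.0944), while the receptor gene Mrgprb2 averaged 0.856 ± 0.205 FPKM in CRS+IMQ and 4.53 ± 0.999 FPKM in control. Of 19 endothelial genes 16 rose and 0 fell (8 and 0 with averaged libraries). P-selectin (Selp), which captures rolling leukocytes, averaged 6.77 ± 0.266 FPKM in CRS+IMQ and 1.05 ± 0.111 FPKM in control, and Pecam1 27.7 ± 0.592 FPKM in CRS+IMQ and 10.4 ± 1.87 FPKM in control (averaged adjusted p = 0.0562). All 5 tested erythroid genes rose (1 with averaged libraries), and Hbb-bs was at 948.6, 911.1 and 883.2 FPKM in CRS+IMQ against 153.8, 76.1 and 176.4 FPKM in control (averaged adjusted p = 0.0679). Summed FPKM of 8 erythroid genes was 2838 to 3043 in CRS+IMQ and 275.2 to 578.9 in control. These genes moved with the neutrophil and endothelial lists, and their part in those results was not tested.

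Interferon-stimulated genes, the antiviral programme that follows Toll-like receptor 7 signalling through interferon, were lower in CRS+IMQ than in untreated skin. Of 47 tested 42 fell and 2 rose, and the median difference was -0.84, and 9 fell with averaged libraries. Ifit3, which restrains viral RNA translation together with its relatives, was at 10.9, 10.6 and 11.5 FPKM in CRS+IMQ against 36.6, 32.8 and 35.4 FPKM in control (-1.58 ± 0.08, adjusted p = 3.9e-05). Irf7, the transcription factor that amplifies the response, averaged 4.23 ± 0.167 FPKM in CRS+IMQ and 13.5 ± 1.88 FPKM in control (-1.47 ± 0.11). Isg15, a ubiquitin-like modifier, averaged 10.7 ± 1.29 FPKM in CRS+IMQ and 27.5 ± 6.06 FPKM in control, and Ifit1 2.22 ± 0.326 FPKM in CRS+IMQ and 6.62 ± 1.16 FPKM in control, and neither was called with averaged libraries (adjusted p of 0.0822 and 0.057). All 10 tested oligoadenylate synthetase genes fell (3 with averaged libraries). Ifi205 and Ifi204, DNA sensors of an interferon-inducible family, were the members that rose, with Ifi205 at 21.3 ± 0.569 FPKM in CRS+IMQ and 12.97 ± 1.32 FPKM in control (averaged adjusted p of 0.111 and 0.316).

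Promoters of genes that moved together are printed to show the elements that their textbook regulators bind. Each is the 250 bases before the RefSeq start (GRCm38.p6), 5′ to 3′ on the gene's strand, with matches in capitals. Matches were searched on both strands, may overlap each other, and are a description of letters, neither a site nor a cause. The first 3 are of interferon-stimulated genes that fell, with the interferon-stimulated response element (GAAA, then any 2 bases, then GAAA) in capitals.
Isg15, chr4:156200819-156201068 (minus strand): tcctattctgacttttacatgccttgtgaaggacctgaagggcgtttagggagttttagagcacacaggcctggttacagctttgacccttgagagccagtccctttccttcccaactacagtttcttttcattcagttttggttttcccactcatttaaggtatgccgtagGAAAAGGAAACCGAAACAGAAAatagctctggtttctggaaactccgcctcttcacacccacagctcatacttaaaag
Ifit1, chr19:34640639-34640888 (plus strand): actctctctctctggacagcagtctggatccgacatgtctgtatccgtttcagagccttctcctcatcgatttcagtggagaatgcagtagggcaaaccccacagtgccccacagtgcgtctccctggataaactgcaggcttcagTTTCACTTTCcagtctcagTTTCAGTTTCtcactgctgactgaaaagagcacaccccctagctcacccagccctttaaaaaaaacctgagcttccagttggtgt
Ifit3, chr19:34583279-34583528 (plus strand): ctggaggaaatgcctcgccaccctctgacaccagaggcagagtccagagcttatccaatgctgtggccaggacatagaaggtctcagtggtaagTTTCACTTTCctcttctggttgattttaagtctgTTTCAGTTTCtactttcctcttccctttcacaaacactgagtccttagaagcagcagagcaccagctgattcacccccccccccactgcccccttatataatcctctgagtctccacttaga
The Isg15 promoter held 3 overlapping matches that began 78, 72 and 66 bases before the start. That of Ifit1 held 2, at 104 and 85 bases, and that of Ifit3 held 2, at 156 and 122 bases. Of the 47 tested genes of the list, 35 matched the table with 40 promoters, and 18 of these (45.0%) held the element, against 978 of all 32851 promoters (2.98%).

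Promoters of genes that rose are shown for the neutrophil attractants Cxcl1 and Cxcl2, with the kappa B element (GGGA, then any 2 bases, then TTCC) in capitals, and for S100a9, with the C/EBP element TTNNGNAAT (N, any base) in capitals.
Cxcl1, chr5:90890995-90891244 (plus strand): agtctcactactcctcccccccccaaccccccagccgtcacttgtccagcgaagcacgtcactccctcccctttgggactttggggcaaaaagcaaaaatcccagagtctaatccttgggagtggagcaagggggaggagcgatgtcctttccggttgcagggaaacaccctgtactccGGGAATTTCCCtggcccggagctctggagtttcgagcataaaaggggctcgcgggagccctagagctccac
Cxcl2, chr5:90903649-90903898 (plus strand): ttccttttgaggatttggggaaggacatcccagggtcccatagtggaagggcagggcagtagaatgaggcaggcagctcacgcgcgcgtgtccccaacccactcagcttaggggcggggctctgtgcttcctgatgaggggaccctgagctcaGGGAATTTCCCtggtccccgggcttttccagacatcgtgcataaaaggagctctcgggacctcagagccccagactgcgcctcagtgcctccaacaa
S100a9, chr3:90695722-90695971 (minus strand): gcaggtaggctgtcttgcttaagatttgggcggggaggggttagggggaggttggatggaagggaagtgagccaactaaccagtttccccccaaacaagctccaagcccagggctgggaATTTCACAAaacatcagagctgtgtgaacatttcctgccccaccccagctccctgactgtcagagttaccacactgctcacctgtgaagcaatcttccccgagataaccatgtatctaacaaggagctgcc
Cxcl1 held 2 overlapping matches from 71 bases before the start, Cxcl2 held 2 from 97 bases, and S100a9 held 1 at 131 bases. The kappa B element was in 4 of 11 promoters of myeloid attractants (36.4%) and in 0 of 37 promoters of keratinocyte activation genes, against 397 of all promoters (1.21%). The C/EBP element was in 13 of those 37 promoters (35.1%) and in 5 of 29 promoters of neutrophil markers (17.2%), against 3337 of all promoters (10.2%).

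Of 25 tested genes of Toll-like receptors and their signalling 12 rose and 0 fell, but only 1 rose with averaged libraries. It was Tlr13, a sensor of bacterial ribosomal RNA, at 4.83 ± 0.417 FPKM in CRS+IMQ and 1.03 ± 0.211 FPKM in control. Tlr7, the receptor of imiquimod, was at 1.68, 3.58 and 1.05 FPKM in CRS+IMQ and at 3.56, 1.19 and 3.16 FPKM in control, so that the libraries within each group differed more than the groups. Of 20 complement genes 6 rose and 0 fell (1 and 0 with averaged libraries).

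Extracellular matrix genes rose broadly. Of the genes counted below, 4 of 40 fibroblast and matrix genes and 3 of 13 metalloproteinase genes were kept through the CRS+IMQ libraries alone. Of 40 tested fibroblast and matrix genes 34 rose and 1 fell, and the median difference was 1.29, and 13 rose with averaged libraries. Tenascin C (Tnc), a matrix protein of wounds and psoriatic dermis, was at 72.7, 72.7 and 71.3 FPKM in CRS+IMQ against 1.02, 1.93 and 2.02 FPKM in control (4.81 ± 0.16, adjusted p = 1.05e-05). Timp1, an inhibitor of metalloproteinases, averaged 53.3 ± 1.48 FPKM in CRS+IMQ and 4.165 ± 0.556 FPKM in control. The collagen cross-linking enzyme Lox averaged 38.3 ± 0.661 FPKM in CRS+IMQ and 6.33 ± 0.837 FPKM in control (2.43 ± 0.10). The dermal collagens Col1a1 and Col3a1 averaged 847.0 ± 16.8 and 604.3 ± 9.06 FPKM in CRS+IMQ against 233.7 ± 65.5 and 186.4 ± 43.8 FPKM in control, and were not called with averaged libraries (adjusted p of 0.0719 and 0.0775). Of 27 collagen genes tested 16 rose and 7 fell (2 and 1 with averaged libraries), and the falls included Col4a5 and Col4a6, chains of epithelial basement membrane (averaged adjusted p of 0.066 and 0.0588). Of 13 metalloproteinase genes 9 rose and 2 fell (5 and 0 with averaged libraries), led after Mmp8 by Mmp11 at 45.0, 45.84 and 41.9 FPKM in CRS+IMQ and 5.208, 3.984 and 4.309 FPKM in control. Stromelysin (Mmp3) averaged 108.8 ± 3.26 FPKM in CRS+IMQ and 21.8 ± 8.27 FPKM in control (averaged adjusted p = 0.0579). Fibronectin (Fn1) was the member that fell, at 14.9 ± 0.176 FPKM in CRS+IMQ and 33.6 ± 7.42 FPKM in control (averaged adjusted p = 0.121).

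Genes that glucocorticoids induce were higher in CRS+IMQ. Of 31 tested 21 rose and 2 fell (9 and 0 with averaged libraries), and the median difference was 0.71. Fkbp5, a co-chaperone that the glucocorticoid receptor induces in most tissues, was at 15.5, 15.2 and 15.8 FPKM in CRS+IMQ against 2.81, 3.42 and 3.34 FPKM in control (1.98 ± 0.08, adjusted p = 2.29e-05). Tsc22d3, which encodes the anti-inflammatory protein GILZ, averaged 35.2 ± 6.42 FPKM in CRS+IMQ and 14.97 FPKM in control (1.16 ± 0.14). Zbtb16 averaged 4.95 ± 0.557 FPKM in CRS+IMQ and 2.295 ± 0.719 FPKM in control and was not called with averaged libraries (averaged adjusted p = 0.154). Lcn2, Mt1, Mt2 and Cebpd are in the list and also respond to inflammation. The receptor gene Nr3c1 fell, at 6.21, 5.84 and 5.78 FPKM in CRS+IMQ against 11.1, 11.8 and 12.6 FPKM in control (-0.88 ± 0.07, adjusted p = 0.000367, averaged adjusted p = 0.0511). Of 13 tested receptors and enzymes of stress hormones 5 rose and 4 fell (3 and 1 with averaged libraries). Hsd11b1, which regenerates active glucocorticoid inside cells, rose to 4.31 ± 0.194 FPKM in CRS+IMQ against 1.61 ± 0.203 FPKM in control. Adrb3, the adrenergic receptor of fat cells, fell to 1.22 FPKM in CRS+IMQ against 13.4 FPKM in control.

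Of 20 tested clock genes 4 rose and 6 fell (2 and 2 with averaged libraries), near the shares over all genes. Of the 20, 1 (Per2) was kept through the CRS+IMQ libraries alone and 2 through the control libraries alone, and these had to differ. The repressors Per1 and Per2 rose, with Per1 at 17.3, 18.0 and 14.6 FPKM in CRS+IMQ against 5.78, 5.22 and 5.92 FPKM in control and Per2 at 3.45, 3.57 and 3.79 FPKM in CRS+IMQ against 0.410, 0.4127 and 0.694 FPKM in control. The activator Arntl fell to 2.20 ± 0.122 FPKM in CRS+IMQ against 4.82 ± 0.318 FPKM in control, and Npas2, which can take the place of Clock, to 0.565 FPKM in CRS+IMQ against 2.35 FPKM in control. The clock output gene Dbp averaged 13.8 FPKM in CRS+IMQ and 15.6 FPKM in control and was not called. The hour of sampling is not given in the labels. Per1 is shown with its E-box, the element CACGTG that clock activators bind, in capitals.
Per1, chr11:69098699-69098948 (plus strand): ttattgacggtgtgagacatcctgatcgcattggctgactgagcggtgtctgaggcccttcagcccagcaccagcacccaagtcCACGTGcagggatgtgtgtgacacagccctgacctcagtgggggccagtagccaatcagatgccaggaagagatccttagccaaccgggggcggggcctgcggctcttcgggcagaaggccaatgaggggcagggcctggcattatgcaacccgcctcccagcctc
The match began 166 bases before this start, and the table's other Per1 start had none. The element was in 6 of 22 promoters of 17 clock genes (27.3%) and in 1978 of all promoters (6.02%).

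Among immediate early genes 13 of 22 rose and 1 fell (1 and 0 with averaged libraries), with Fos at 34.6 ± 0.471 FPKM in CRS+IMQ and 6.05 ± 0.959 FPKM in control (2.35 ± 0.11). Of 19 heat shock genes 4 rose and 4 fell, near the shares over all genes, and 0 were called with averaged libraries. Oxidative stress genes rose more often than they fell, 11 and 2 of 21 (4 and 0 with averaged libraries). Slc7a11, the cystine transporter, averaged 1.99 ± 0.211 FPKM in CRS+IMQ and 0.0693 ± 0.0134 FPKM in control. It was the 1 gene of the 21 kept through the CRS+IMQ libraries alone, and had to differ. The metallothionein gene Mt1 averaged 276.7 ± 6.85 FPKM in CRS+IMQ and 69.8 ± 14.9 FPKM in control, and the epidermal Mt4 fell to 70.1 FPKM in CRS+IMQ against 173.4 FPKM in control (averaged adjusted p = 0.166). Heme oxygenase (Hmox1) averaged 215.2 ± 1.08 FPKM in CRS+IMQ and 67.2 ± 16.8 FPKM in control (averaged adjusted p = 0.0702).

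Eicosanoid genes moved in both directions, with 8 of 28 higher and 12 lower (5 and 3 with averaged libraries). Cytosolic phospholipase A2 enzymes release fatty acids from membranes. Of their 5 tested genes Pla2g4b (averaged adjusted p = 0.0818), Pla2g4d and Pla2g4e rose, Pla2g4a fell (averaged adjusted p = 0.18) and Pla2g4f was not called. Pla2g4d was at 9.99, 10.5 and 9.56 FPKM in CRS+IMQ against 0, 0.01295 and 0.0266 FPKM in control, and Pla2g4e averaged 20.4 ± 0.416 FPKM in CRS+IMQ and 1.78 ± 0.157 FPKM in control. Of the 28 eicosanoid genes, 2 (Pla2g4d and Ptgs2) were kept through the CRS+IMQ libraries alone and had to differ. The inducible cyclooxygenase Ptgs2 averaged 2.90 ± 0.190 FPKM in CRS+IMQ and 0.355 ± 0.141 FPKM in control and rose, while the constitutive Ptgs1 fell, at 12.5 FPKM in CRS+IMQ and 42.0 FPKM in control (averaged adjusted p = 0.0843). The epidermal lipoxygenase Alox12e was at 3.38, 3.31 and 3.12 FPKM in CRS+IMQ against 125.6, 114.4 and 65.7 FPKM in control (-4.54 ± 0.24). Of 15 tested ligands and feedback genes of the EGF receptor 6 rose and 3 fell (4 and 0 with averaged libraries). Areg, Hbegf and Epgn averaged 14.9, 13.7 and 26.8 FPKM in CRS+IMQ against 0.638, 0.962 and 2.43 FPKM in control and rose, whereas Btc averaged 0.263 FPKM in CRS+IMQ and 6.93 FPKM in control and fell (averaged adjusted p = 0.2), and Ereg was not called.

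Of 38 tested proliferation genes 15 rose and 0 fell, and 0 were called with averaged libraries. Mki67 was at 7.61, 8.10 and 8.48 FPKM in CRS+IMQ against 6.73, 6.51 and 4.58 FPKM in control (0.40 ± 0.14, adjusted p = 0.0665). It was called under quantile normalization (adjusted p = 0.0312) and median-ratio scaling (adjusted p = 0.0345). Without control library 3 Mki67 was called with a smaller difference (0.25, adjusted p = 0.0334). Of 45 hair follicle genes only 17 were tested, of which 5 rose and 9 fell (4 and 4 with averaged libraries). Of the 17, 3 were kept through the CRS+IMQ libraries alone, Krt25 among them, and 3 through the control libraries alone, and these had to differ. Krt75, a keratin of the companion layer, averaged 2.56 ± 0.331 FPKM in CRS+IMQ and 34.4 ± 4.68 FPKM in control, and Krt25, of the inner root sheath, 2.21 ± 0.379 FPKM in CRS+IMQ and 0.0249 ± 0.0251 FPKM in control. Of 8 melanocyte genes 6 rose and 0 fell (2 and 0 with averaged libraries). Of 13 Schwann cell genes 2 rose and 6 fell, and 0 were called with averaged libraries.

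Skeletal muscle transcripts, which reach dorsal skin samples from the muscle layer beneath it, were abundant in both groups. Of 29 tested 9 fell and 4 rose (1 and 1 with averaged libraries), and their summed FPKM was 16270 to 16480 in CRS+IMQ and 17370 to 39070 in control. The fast-fibre gene Pvalb averaged 86.9 ± 0.741 FPKM in CRS+IMQ and 1204 ± 401 FPKM in control (-3.72 ± 0.26), and the slow-fibre gene Tnni1 4.54 ± 0.211 FPKM in CRS+IMQ and 0.415 ± 0.153 FPKM in control. Acta1 was at 6740, 6778 and 6586 FPKM in CRS+IMQ and at 5321, 7841 and 11670 FPKM in control, and the groups overlapped. Of 21 muscle stress genes 8 rose and 3 fell (2 and 0 with averaged libraries), with Ankrd1 at 8.99 FPKM in CRS+IMQ and 0.552 FPKM in control. The atrophy ligases Fbxo32 and Trim63 were not called. Nuclear respiratory chain genes were called in 5 of 36, all lower, and 0 were called with averaged libraries. Of 13 mitochondrially encoded genes limma called 0, with 0 at an unadjusted p under 0.05. Of 23 glycolysis genes 3 rose and 4 fell, and 0 were called with averaged libraries. The part of the muscle content of each library in the other results was not tested, and FPKM of every gene depends on what else a library holds.

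The single treatments are given only as levels. Of the 2478 genes called higher, 1514 (61.1%) had all CRS+IMQ libraries above all 9 libraries of the other 3 groups, and in 700 (28.2%) the means of CRS and IMQ were both below control. Of the 2829 genes called lower, 1264 (44.7%) had all CRS+IMQ libraries below all 9 others, and in 362 (12.8%) both single-treatment means were above control. These shares are of genes called because CRS+IMQ and control differ, which in part builds them in. The same shares over all genes tested were not taken, so the shares here are no result about the combination. Neutrophil genes summed to 5083 to 5273 FPKM in CRS+IMQ, 145.4 to 155.6 in CRS, 679.0 to 1592 in IMQ and 307.0 to 467.2 in control. Abundant members, some of which keratinocytes also express, weigh most in these sums. The median log2 difference from control over the 34 tested members was 0.039 in CRS and 0.048 in IMQ. Macrophage genes summed to 4119 to 4212 FPKM in CRS+IMQ, 575.3 to 610.7 in CRS, 563.6 to 811.3 in IMQ and 3947 to 5910 in control. Retnla alone gave 1097 to 2013 FPKM of the control sums. Interferon-stimulated genes summed to 440.4 to 457.3 FPKM in CRS+IMQ, 317.5 to 332.0 in CRS, 187.7 to 198.0 in IMQ and 995.3 to 1178 in control, so that control was the highest of the 4 groups. Krt77 averaged 0.417 FPKM in CRS+IMQ, 102.0 in CRS, 13.3 in IMQ and 2459 in control. Fkbp5 averaged 15.5 FPKM in CRS+IMQ, 18.4 in CRS, 5.96 in IMQ and 3.19 in control. CRS shared its table with control and IMQ shared its table with CRS+IMQ, and no test was made on these levels.

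**Figure D4:**
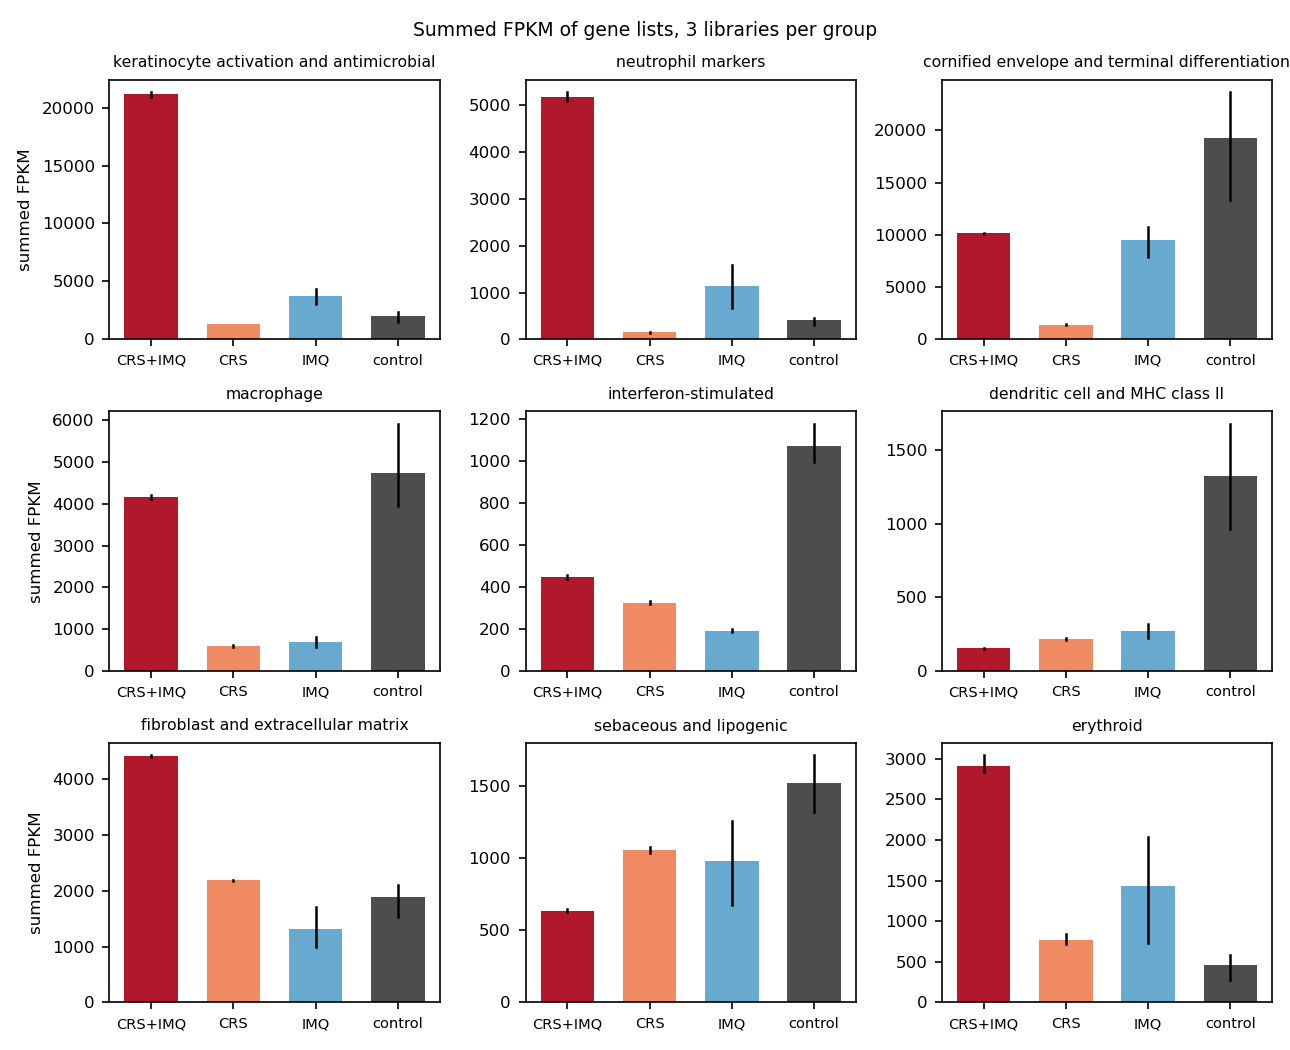
Summed FPKM of 9 gene lists in CRS+IMQ, CRS, IMQ and control; bars are the means of 3 libraries and lines run from the lowest to the highest library. Keratinocyte activation, neutrophil, matrix and erythroid genes are highest in CRS+IMQ, and cornified envelope, interferon-stimulated, MHC class II and sebaceous genes are highest in control.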

How the data were processed

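The authors deposited FPKM per gene for 12 libraries in 2 tables, which were joined by gene identifier. Values came from StringTie on mm10, and edgeR and limma are also named, per the submitters' processing notes; the aligner is not given in the sources used here. Values at the floor of 0.0001 were set to 0, and 14083 genes with 1 FPKM or more in 3 of the 6 libraries were kept. The log2(FPKM + 1) values were tested with limma 3.58.1 (trend and robust, statmod 1.5.0, R 4.3.3), two-sided, with Benjamini-Hochberg adjustment over all genes kept. An exact permutation test of 3 against 3 libraries cannot go below p = 0.1. Without counts, no counting interval is given, and depth was estimated from the steps of low values.

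On simulated data (14083 genes, 200 changed) the test found 73% of 2-fold and 94% of 4-fold changes, and 13.9% of 194 calls were false. Named genes are the 15 largest rises and falls among called genes with a mean of 1 FPKM or more in the higher group, no overlap between libraries and a symbol that is not a predicted or clone-based model, up to 5 members per list by smallest p, and a short set of standard markers; other members were added after their values were seen. Members and lists were chosen with earlier results of these data known. Gene positions are from GENCODE M21. In all, 17 other settings were tried.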

Additional observations from a re-analysis of the deposited data

How the results depend on the processing

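With the 3 CRS+IMQ libraries averaged to 1 sample, 910 genes were called in place of 5307 (529 higher and 381 lower). With a 2-fold minimum, 1535 were called (702 higher and 833 lower). Leaving out 1 library at a time gave 3632 to 6153 calls, 1712 to 2676 higher and 1912 to 3477 lower. The other settings, of pseudocount, filter, scaling, spread and libraries fitted, gave 5091 to 6133. Quantile normalization and median-ratio scaling moved the higher share to 51.9% and 51.4% of calls, from 46.7%. The replicate numbers did not pair the libraries: correlations of same-numbered deviations were -0.017 to 0.008, only CRS+IMQ replicate 3 correlated best with its own number, and a fit with the replicate number as a block called 4311 genes (2008 higher and 2303 lower). Of the 237 named genes tested, 0 reversed under any setting, 75 were no longer called with averaged libraries, 46 with a 2-fold minimum and at most 8 in any other. Krt25 and Krt71 were not called in the fit of all 12 libraries (adjusted p of 0.228 and 0.32).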
